A study of Mus musculus with 6 samples.

Results

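The 10 genes described here encode the Egr and Nr4a transcription factors, the Ier proteins and Phlda1. All are immediate early genes, measured in mouse myospheres, which are floating clusters grown from cells of muscle tissue. The genes Egr1, Egr2, Egr3, Nr4a1, Nr4a2, Nr4a3, Ier2, Ier3, Ier5 and Phlda1 were chosen by name, and every probe set annotated to 1 of them alone was taken. They had 21 probe sets, 15 on the Affymetrix chip MOE430A and 6 on MOE430B, of 35041 single-gene probe sets for 18193 genes on both chips. The cells came from the hind leg of male Balb/c mice, were enriched by flow sorting with the surface antigen Sca1, and carried no engineered allele that the labels mention. They grew for 4 days in neurocult medium with bf6f, LIF, B27 and EGF at 37C with CO2, and after passaging, at passage 1, total RNA was prepared from 2000000 cells, in 5 µL. Replicates 1, 2 and 3 were each hybridised to both chips, which gave 6 arrays of 1 condition and no control group. The series text speaks of 1 sample with 6 replicates, so the p-values measure the spread between these arrays alone, which may be technical.

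Immediate early genes are transcribed within minutes of a growth factor, cytokine or stress signal, from factors already present in the cell, and need no new protein for their induction. The ERK kinases reach them mainly through SRF with its ETS partners, and calcium and cyclic AMP signals reach them through CREB and MEF2. Their transcripts are typically short-lived. Egr proteins bind GC-rich sites through zinc fingers, Nr4a proteins are orphan nuclear receptors that act without a known hormone, and the Ier proteins and Phlda1 are small regulators without a DNA-binding domain.

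Promoter sequences are shown because TGACG, the short form of the cyclic AMP response element (CRE), was found near annotated starts of all 3 Nr4a genes. RefSeq promoters (mouse build GRCm38.p6, 250 bases before to 50 after an annotated start) were listed for 6 of the 10 genes, namely Egr2, Nr4a1, Nr4a2, Nr4a3, Ier3 and Ier5, in 10 windows of which 5 belong to Egr2. The windows of Nr4a1 and Egr2 lie inside the gene coordinates given below, and that of Nr4a3 overlaps them. These annotated starts are thus not the first base of the gene. Both strands were searched for 7 motifs. The letters TGACG, which also lie within the full CRE TGACGTCA, were found for 4 of 6 genes (Egr2, Nr4a1, Nr4a2 and Nr4a3), and for 23.0% of the 27025 genes in the table. A CArG box, the element bound by SRF, was found for Egr2 alone, in 4 of its 5 windows, of which 3 overlap, and for 1.81% of all genes. The Egr site GCGGGGGCG or GCGTGGGCG was found for Nr4a1, against 3.93% of all genes, and the TATA box TATAAA for Nr4a2, against 15.7%. No match to TGACGTCA (2.03% of all genes), the Nr4a site AAAGGTCA (1.7%) or the ETS site CCGGAAGT (4.31%) was found in the 10 windows. Ier3 and Ier5 held none of the 7 motifs. A match is a run of letters and does not show that a factor binds there.

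The bases before an annotated start are given for Nr4a1 (chr15:101266596-101266845, plus strand) and Nr4a2 (chr2:57124004-57124253, minus strand). For Nr4a3 (chr4:48045067-48045096, plus strand) and Egr2 (chr10:67537789-67537818, plus strand) only the 30 bases with the most matches are given. All are read 5′ to 3′ on the strand of the gene. Capitals mark the motif matches, in either orientation.
Nr4a1: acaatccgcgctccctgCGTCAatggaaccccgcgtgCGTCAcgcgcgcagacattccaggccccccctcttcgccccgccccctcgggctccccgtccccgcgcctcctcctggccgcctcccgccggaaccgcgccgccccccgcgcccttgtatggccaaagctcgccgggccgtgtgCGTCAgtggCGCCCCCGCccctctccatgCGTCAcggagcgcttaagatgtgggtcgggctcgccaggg
Nr4a2: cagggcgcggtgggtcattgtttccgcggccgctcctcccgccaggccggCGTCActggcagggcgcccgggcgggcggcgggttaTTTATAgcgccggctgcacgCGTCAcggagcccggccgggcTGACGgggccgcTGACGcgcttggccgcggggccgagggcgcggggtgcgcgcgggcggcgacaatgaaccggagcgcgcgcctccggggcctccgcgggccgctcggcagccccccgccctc
Nr4a3: aggagggTGACGtagcgtcccatgtCGTCA
Egr2: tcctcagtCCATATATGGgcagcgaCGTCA
The Nr4a1 stretch holds 4 TGACG matches, all in reverse, and the Egr site lies between the last 2 of them. The Nr4a2 stretch holds 4 TGACG matches and the TATA box letters in reverse. The 30 bases of Nr4a3 hold 2 of the 4 TGACG matches in its window. In Egr2 the CArG box and a TGACG match lie within the same 30 bases, and another TGACG match lies before them.

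Each level was read against a background limit, since the study has 1 condition only. The limit of an array was the 95th percentile of probe sets for genes of other tissues, such as odorant receptors and keratin-associated proteins. It averaged 809 MAS5 signal units on MOE430A (150 such probe sets) and 2922 on MOE430B (43 probe sets). MAS5 signal is Affymetrix's linear summary of a probe set's brightness. The chips were scaled apart, so in the main fit a level is compared with the limit of its own chip only. Probe sets differ in affinity, so signals do not rank the genes. A probe set was called above or below the limit where limma gave an adjusted p under 0.05 (two-sided, Benjamini-Hochberg over all probe sets of the chip). The error of the limit itself is not part of the SE.

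Of the 10 genes, 9 had at least 1 probe set above the limit, against 33.3% of all genes. Egr3 was the exception. Of all genes with 1 probe set 20.1% were above, and 5 of the 5 members with 1 were. Of all genes with 2 sets 38.8% were above, and 1 of 2 members was. Of all genes with 3 or more 55.3% were, and 3 of 3 members were. By probe set, 9 of 15 on MOE430A were above, against 32.5% of that chip, and 4 were below, against 47.9%. On MOE430B 3 of 6 were above, against 8.51%, and 3 below, against 73.6%. The same 9 and 3 probe sets exceeded the limit on 3 of 3 arrays, against 35.1% and 10% of all probe sets. The median log2 ratio to the limit was 1.52 over the 15 on MOE430A, beside -0.55 over all probe sets of that chip, and 0.13 over the 6 on MOE430B, beside -1.88. The 10 genes were named with earlier results of these data known, so this count is a description.

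**Figure D1:**
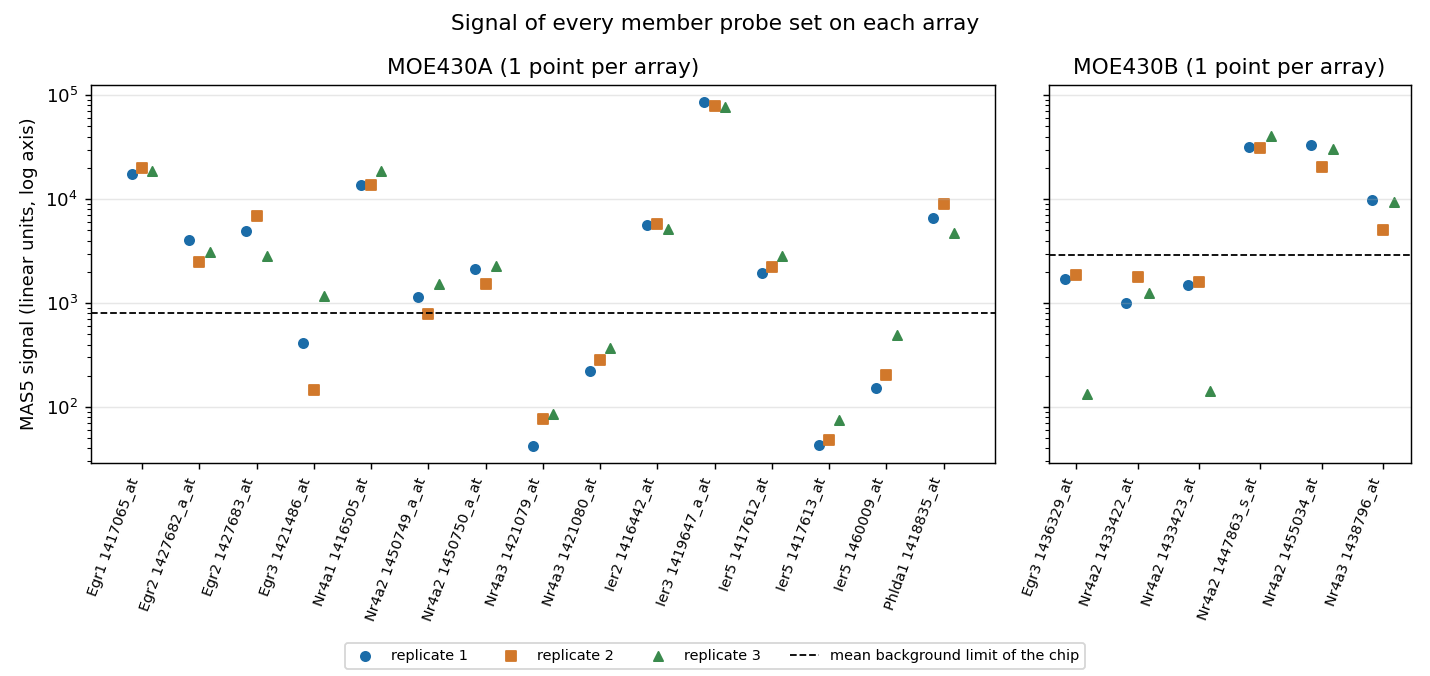
MAS5 signal of the 21 probe sets on each array (vertical log axis), MOE430A on the left and MOE430B on the right, with 1 symbol per replicate and a dashed line at the mean limit of the chip, 809 and 2922. Above the limit on all 3 arrays lie 12 of the 21 sets, and the mean of the Ier3 set is 80117.

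Egr1, an early growth response factor induced through SRF and ERK, gave MOE430A signals of 17368, 20097 and 18862 in replicates 1, 2 and 3, the order kept below. All 3 arrays were far above their limits, and the highest was 1.16 times the lowest. The log2 ratio to the limit was 4.53 ± 0.11 (SE, n = 3; limma, adjusted p = 5.33e-08), or 23.2-fold. The gene lies at 34861207 to 34864956 of chromosome 18 (GRCm38.p6) and had a single probe set.

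Egr2, known for its part in myelination and hindbrain patterning, had 2 probe sets on MOE430A, for a gene at 67534469 to 67542188 of chromosome 10. The set 1427682_a_at gave 4023, 2460 and 3093, a log2 ratio of 1.95 ± 0.13 (limma, adjusted p = 8.59e-06). The set 1427683_at gave 4926, 6901 and 2857, a ratio of 2.51 ± 0.22 (limma, adjusted p = 3.87e-05). Both were above the limit on every array, yet they ordered the arrays differently, with replicate 1 highest by the first and replicate 2 by the second. The 2.42-fold range of 1427683_at was the widest of the 12 sets above the limit.

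Egr3, which acts in muscle spindle development, was not above the limit by either probe set (gene at 70077317 to 70082613 of chromosome 14). On MOE430A it gave 417, 146 and 1174, with replicate 3 alone over the limit, and a log2 ratio of -0.96 ± 0.51 (limma, adjusted p = 0.117, with 0.0209 to 0.599 over all alternatives). Without replicate 3 the ratio was -1.70 and the set was called below the limit (limma, adjusted p = 0.0239), and without replicate 2 it was -0.23. On MOE430B it gave 1703, 1870 and 133, under the limit on every array, with a log2 ratio of -1.95 ± 0.67 (limma, adjusted p = 0.0155). The call below the limit was lost without replicate 3 (limma, adjusted p = 0.0586, with 0.00624 to 0.763 over all alternatives). It was also lost with no intensity trend in the fit (limma, adjusted p = 0.0841) and with the array median as limit (limma, adjusted p = 0.763). Replicate 3 was the highest array on MOE430A and the lowest on MOE430B, and the highest array was 8.06 and 14.0 times the lowest. Signals under the limit could not be told from background, so a low level of Egr3 could have been missed.

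Nr4a1 (Nur77), an orphan receptor of stressed and activated cells, gave 13550, 13610 and 18742 on MOE430A, with replicate 3 the highest. The arrays lay 16.5 to 22.8 times over their limits. The log2 ratio was 4.22 ± 0.12 (SE, n = 3; limma, adjusted p = 6.99e-08), or 18.7-fold. The gene lies at 101253902 to 101274795 of chromosome 15.

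Nr4a2 (Nurr1), best known for its role in dopamine neurons, had 6 probe sets and lies at 57106830 to 57124003 of chromosome 2. On MOE430B the set 1447863_s_at gave 31612, 31101 and 40283, a log2 ratio of 3.55 ± 0.14 (limma, adjusted p = 7.66e-11), and 1455034_at gave 33519, 20598 and 30696, a ratio of 3.25 ± 0.14 (limma, adjusted p = 3.6e-10). On MOE430A 1450750_a_at gave 2143, 1534 and 2292 and was above the limit by 1.28 ± 0.13 (limma, adjusted p = 9.42e-05). These 3 sets were over the limit on all arrays, and replicate 2 was the lowest of each.

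The other Nr4a2 sets were not above the limit. The MOE430A set 1450749_a_at gave 1143, 782 and 1538, over the limit in replicates 1 and 3, and its log2 ratio of 0.46 ± 0.19 did not pass (limma, adjusted p = 0.0567), though it did without replicate 2 (0.69, adjusted p = 0.0149, with 0.00249 to 0.857 over all alternatives). The MOE430B set 1433422_at gave 998, 1768 and 1264, a ratio of -1.15 ± 0.37 (limma, adjusted p = 0.0117). Its call was lost with the array median as limit and without replicate 1 (limma, adjusted p = 0.0655 without replicate 1, with 0.000913 to 0.211 over all alternatives). The set 1433423_at gave 1499, 1600 and 144, a ratio of -2.05 ± 0.66 (limma, adjusted p = 0.0111, with 0.00442 to 0.67 over all alternatives). This call was lost with no intensity trend in the fit and with the array median as limit, and without replicate 3 the ratio was -1.0. The calls of the 6 sets thus divided into 3 above, 2 below and 1 neither. The part of the transcript each set reads was not analysed here.

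Nr4a3 (Nor1), the remaining receptor of the family, had 3 probe sets, and 1 was above the limit (gene at 48045078 to 48086447 of chromosome 4). The MOE430B set 1438796_at gave 9821, 5015 and 9289, with replicate 2 the lowest, and a log2 ratio of 1.41 ± 0.20 (limma, adjusted p = 6.93e-05). The MOE430A sets were under the limit on every array. The set 1421080_at gave 223, 286 and 371, at -1.49 ± 0.33 (limma, adjusted p = 0.00462), and 1421079_at gave 42.2, 76.8 and 86.6, at -3.63 ± 0.48 (limma, adjusted p = 0.000385). Nr4a3 would therefore count as not above the limit on MOE430A alone.

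**Figure D2:**
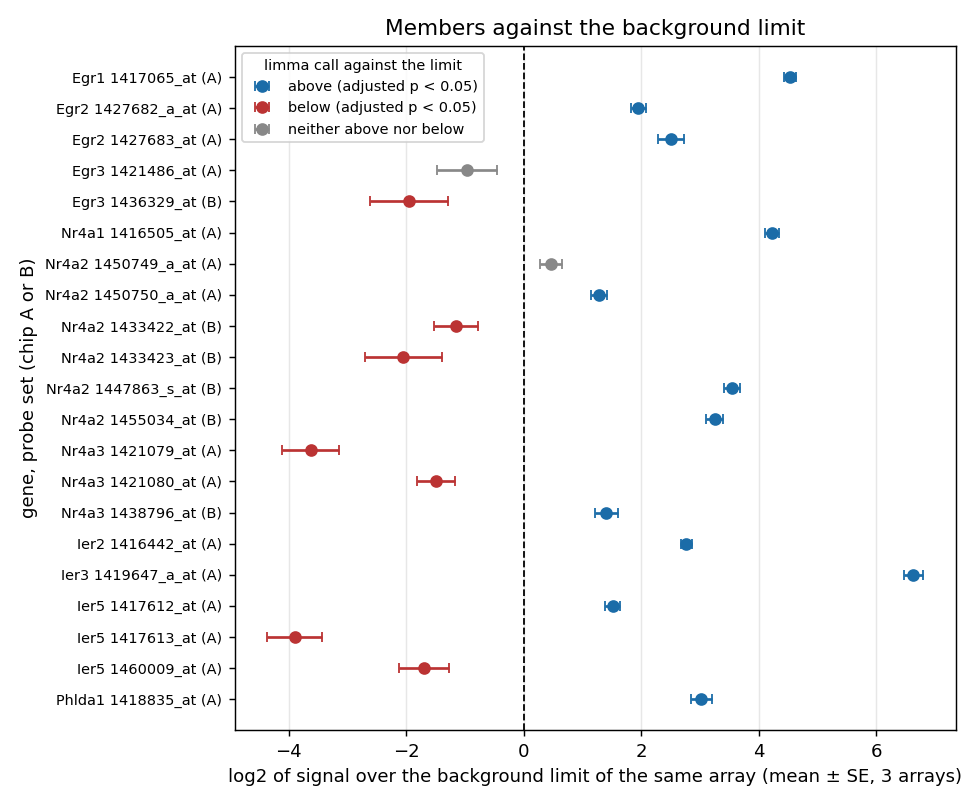
Log2 ratio of signal to the background limit of the same array (horizontal axis, mean ± SE over 3 arrays) for the 21 probe sets, with blue for above, red for below and grey for neither, and the chip in brackets. Nr4a2, Nr4a3 and Ier5 have sets on both sides of the dashed line at the limit, while both Egr3 sets lie left of it.

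Ier3 (IEX-1), a stress-induced regulator of cell survival and ERK signalling, gave 85745, 78033 and 76574 on MOE430A. The 3 arrays differed by no more than 1.12-fold and lay 93.2 to 105 times over their limits. The log2 ratio was 6.63 ± 0.16 (SE, n = 3; limma, adjusted p = 5.33e-08). The level rests on an _a_at set, whose probes match several transcripts of 1 gene, and Ier3 had no other set (gene at 35821713 to 35822911 of chromosome 17).

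Ier2, a nuclear immediate early protein, gave 5601, 5762 and 5163, the narrowest range of the 12 sets above the limit at 1.12-fold. Its log2 ratio was 2.77 ± 0.09 (limma, adjusted p = 1.33e-07), and the gene lies at 84661331 to 84662852 of chromosome 8. Ier5, a relative of Ier2 that modulates the heat shock factor, had 3 sets on MOE430A (gene at 155096367 to 155099636 of chromosome 1). The set 1417612_at gave 1945, 2242 and 2847, above the limit on all arrays by a log2 ratio of 1.52 ± 0.13 (limma, adjusted p = 2.92e-05).

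The other Ier5 sets lay under the limit on every array. The set 1460009_at gave 151, 204 and 494, a log2 ratio of -1.70 ± 0.43 (limma, adjusted p = 0.00809), and 1417613_at gave 43.5, 48.0 and 75.9, a ratio of -3.90 ± 0.47 (limma, adjusted p = 0.000209). All 3 Ier5 sets ordered the arrays alike, with replicate 3 highest and replicate 1 lowest. Control probe sets read higher at the 3′ than at the 5′ end of the transcript. The ratio was 13.8-fold for Gapdh and 10.4-fold for actin on MOE430A, and 15.4-fold and 11.1-fold on MOE430B. The part of this in the disagreement between sets of 1 gene, or in calls below the limit for any member, was not tested.

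Phlda1 (TDAG51), a pleckstrin homology domain protein induced by ERK signalling, gave 6630, 9079 and 4716 on MOE430A. Replicate 2 was the highest and replicate 3 the lowest, 1.93-fold apart, and each was above its limit. The log2 ratio was 3.02 ± 0.18 (SE, n = 3; limma, adjusted p = 3.15e-06). The gene lies at 111506286 to 111508649 of chromosome 10.

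The spread between replicates was next compared. Over the 9 MOE430A sets above the limit, the SD of log2 signal ran from 0.08 for Ier2 to 0.64 for Egr2, with a median of 0.28, beside 0.19 over the 7364 sets of that chip above the limit. Egr1, Ier2 and Ier3 varied least, at 0.11, 0.08 and 0.09. No array was highest throughout: 2 of these 9 sets were highest in replicate 1, 4 in replicate 2 and 3 in replicate 3. On MOE430B replicate 2 was the lowest array for 3 of 3 sets above the limit, all of Nr4a2 or Nr4a3, and for 49.0% of all sets above the limit on that chip.

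Replicates were tested against each other over the 613 genes above the mean limit on both chips, a filter that left Nr4a2 of the members (limma moderated F-test with chip as covariate). The test takes each replicate as 1 RNA on 2 chips, which the labels do not state. It sets single samples against the spread between chips and probe sets, so a missing call says little. The Nr4a2 signal in replicate 3 exceeded that in replicate 2 by a log2 difference of 0.63 ± 0.24 (SE), the widest gap. This did not pass (limma, adjusted p = 0.38, with 0.478 to 0.974 over all alternatives). Of all genes tested, 1.14% passed (limma, 7 of 613, with 64 at an unadjusted p under 0.05, Nr4a2 among them), and 0 passed without replicate 1 or without replicate 2. The widest gap of Nr4a2 was 0.19 without replicate 2. With no filter on level, Egr3 and Nr4a3 entered too, and 0 of 3 members passed (limma; 0 of 3 at an unadjusted p under 0.05).

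**Figure D3:**
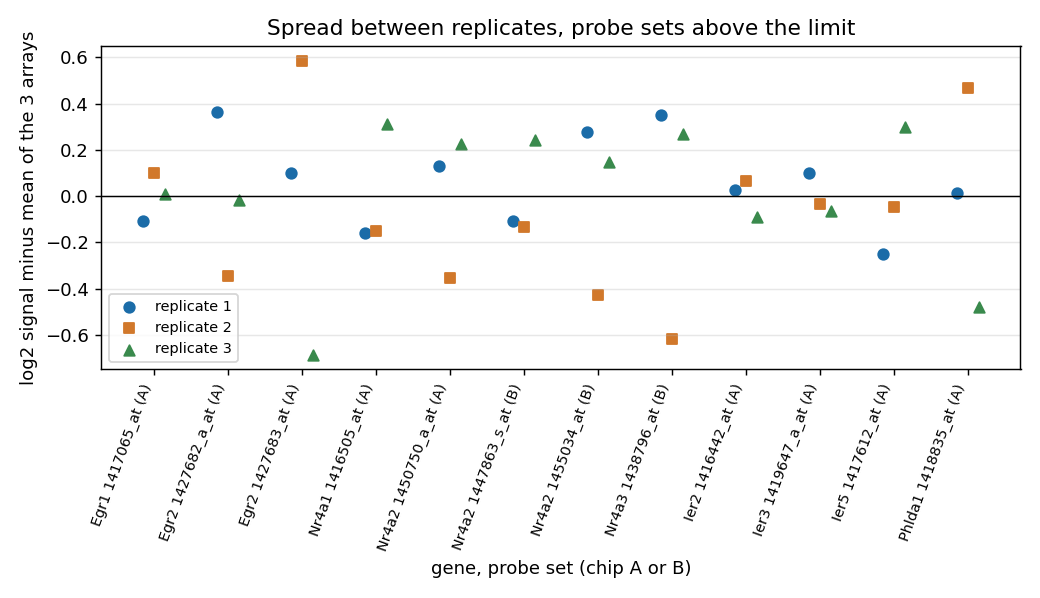
Log2 signal minus the mean of the 3 arrays (vertical axis) for the 12 probe sets above the limit, with 1 symbol per replicate and the chip in brackets. Egr1, Ier2 and Ier3 stay close to the zero line, while 1427683_at of Egr2, Phlda1 and the Nr4a3 set spread widest.

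Of 7 genes listed as relatives of the members, not all of the same families, 3 were above the limit, against 33.3% of all genes. Of these 3, Phlda3 alone is of a member's family. Egr4, the fourth Egr gene and itself an immediate early gene, gave 271 ± 177 (SD, n = 3) on MOE430A and was below the limit (limma, adjusted p = 0.00863), as was Wt1, whose zinc fingers resemble those of Egr proteins, at 117 ± 45.5 (adjusted p = 0.00104). Phlda2, an imprinted growth regulator, was below too, at 118 ± 62.2 (limma, adjusted p = 0.00124). Phlda3, a p53-induced inhibitor of Akt, was above it at 2065 ± 128 (limma, adjusted p = 2.09e-05). Csrnp1, a nuclear protein of another family, was above by 1 of its 2 sets on MOE430B, at 9020 ± 1287 (limma, adjusted p = 1.11e-06), and Ier3ip1, named as an interactor of Ier3, by 1 of 2 on MOE430A, at 2853 ± 374. Ier5l was not above the limit by either of its sets.

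Partners and corepressors were above the limit for 5 of 7, against 33.3% of all genes. By probe set, 5 of their 13 were above and 5 below, where 32.5% of all sets on MOE430A and 8.51% on MOE430B were above. The gene count fell to 1 with the 99th percentile as limit, 2 without replicate 1 and 3 without replicate 2. Nab1, a corepressor that binds Egr proteins, gave 8748 ± 1534 (SD, n = 3) by 1417624_at, a log2 ratio to the limit of 3.42 ± 0.11 (SE; limma, adjusted p = 1.12e-07), while its other 2 sets were not above it. Nab2, itself an Egr target that feeds back on Egr proteins, gave 1160 ± 213, at 0.50 ± 0.15 (limma, adjusted p = 0.0161). Of the retinoid X receptors, which pair with Nr4a1 and Nr4a2, Rxrb gave 1166 ± 138, at 0.52 ± 0.14 (limma, adjusted p = 0.0118), and Rxra and Rxrg were not above the limit.

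Factors that act upstream of immediate early genes were above the limit for 9 of 13. This stood against 33.3% of all genes and 55.3% of genes with 3 or more sets. Of their 45 probe sets 15 were above, 16 below and 14 neither. Over whole chips, 32.5% of sets on MOE430A and 8.51% on MOE430B were above. Srf was above by both of its MOE430A sets, at 1266 ± 214 and 1415 ± 203 (SD, n = 3; limma, adjusted p = 0.00457 and 0.0011). Its ETS partners Elk3 and Elk4 were above, Elk3 at 4513 ± 283 by 1435143_at (limma, adjusted p = 2.74e-07), and Elk1 was not. The coactivator Mrtfb was above by 1 of 3 sets, at 15457 ± 4146 on MOE430B (limma, adjusted p = 3.25e-08), and Mrtfa was not. Of CREB factors and coactivators, Creb1, Crem and Crtc3 were above, Crem at 4844 ± 768 by 1418322_at (limma, adjusted p = 4.21e-07), and Crtc2 was not. Mef2a and Mef2d were above and Mef2c was not. Apart from Srf, every upstream gene above the limit also had a probe set that was not above it.

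Kinases and GTPases of the ERK pathway were above the limit for 4 of the 7 analysed here, of 14 listed. With 26 probe sets for these 7 genes, the count is near the background of 55.3% for genes with 3 or more sets. Nras was above by 2 of 3 sets, at 2008 ± 326 (SD, n = 3) by 1422687_at (limma, adjusted p = 8.06e-05). Braf was above by 1 of 9 sets, on MOE430B, at 5646 ± 1736 (limma, adjusted p = 0.00358), while no Araf set, of 5, was above.

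Other immediate early genes were above the limit for 26 of 42, with a median log2 ratio of 1.37 for the best set of each gene. This median was 2.89 over the 10 members and -0.42 over all 18193 genes. The share of genes called above was 33.3% in the whole data. It was 20.1%, 38.8% and 55.3% for genes with 1, 2 and 3 or more probe sets. The 42 genes had 69 probe sets, which split into 38 above, 16 below and 15 neither. The chip-wide shares above were 32.5% on MOE430A and 8.51% on MOE430B. Among AP-1 subunits, Fos, Fosl1, Fosl2, Jun and Junb were above. Fos gave 13162 ± 2010 (SD, n = 3) on MOE430A (limma, adjusted p = 8.19e-08) and Fosl2 41744 ± 6882 on MOE430B (adjusted p = 2.91e-12), while the other Fosl2 set, on MOE430A, was below the limit (adjusted p = 0.0452). Fosl1 was above by 1 of 2 sets. Fosb gave 803 ± 197, at a log2 ratio of -0.040 ± 0.19 (limma, adjusted p = 0.852).

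**Figure D4:**
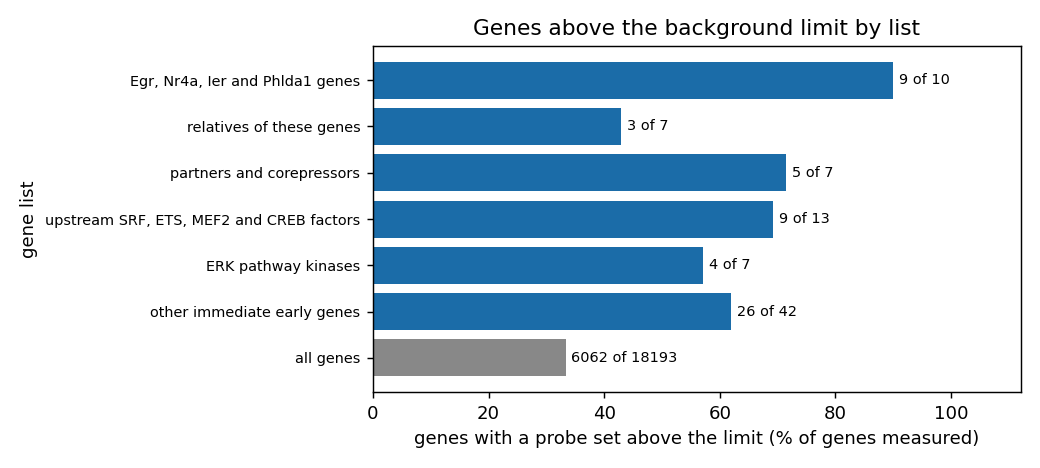
Share of genes with at least 1 probe set above the limit (horizontal axis, percent of genes measured) for the 10 members, the 5 other lists and, in grey, all genes. The members stand at 9 of 10 and the other immediate early genes at 26 of 42, beside 6062 of 18193 for all genes.

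The label of the cells was checked against marker genes. Of all genes, 33.3% were above the limit. All 6 mesenchymal progenitor markers were above it, among them Pdgfra and Cd34, while 0 of 5 muscle stem cell and myoblast markers were (limma; 0 of 5 also at an unadjusted p under 0.05). Of the 8 muscle sets 5 were below the limit and 3 neither. Among the latter, Myog (log2 ratio 0.48 ± 0.21) and the MOE430A set of Myod1 were over the limit on 2 of 3 arrays. Above the limit were also 1 of 5 endothelial markers (Kdr), 2 of 5 leukocyte and macrophage markers (Csf1r and Cd14), 2 of 4 pericyte and smooth muscle markers (Rgs5 and Acta2) and 1 of 4 neural markers (Nes). Csf1r, Rgs5, Acta2 and Nes also had sets below the limit. Pecam1 and Vwf were below the limit, and Ptprc was not above it. In RNA from a mixed culture, fewer cells expressing a gene and less RNA per cell cannot be told apart, and the part of each cell type in the signals of the 10 genes was not tested.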

How the data were processed

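Gene expression was measured on 3 arrays of MOE430A and 3 of MOE430B. The deposited values are MAS5 signal intensity per probe set, 1 value per array, made by the authors per the submitters' processing notes, and the software version is not given in the sources used here. The mean after trimming 2% at each end lay between 1500.2 and 1500.8 on all arrays, which shows a common scaling target within each chip. The number of arrays limits the precision.

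Probe sets were named from GEO's platform annotation, with symbols updated through Entrez numbers in RefSeq's GRCm38.p6 table, which held 20364 of 20393 single-gene probe sets on MOE430A and 14499 of 14674 on MOE430B. Sets with several genes (691 and 245) or none (1606 and 7656) were not used for gene results, and none of those with several held a member. Control sets were left out.

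Log2 signal minus log2 limit of the same array was fitted with limma 3.58.1 (R 4.3.3, eBayes with intensity trend) per chip, with no pseudocount. Replicates were compared with limma's F-test, with chip as covariate. Protein sequences were not analysed here. The fits were tested on simulated data with known changes. Alternatives were the 99th percentile or array median as limit, receptor families alone as reference, a pseudocount of 100, quantile normalization, array median centring, no shared-sequence probe sets (_x_at, _s_at, _a_at), no trend, 1 probe set per gene, no filter and each replicate left out. Members and lists were chosen with earlier results of these data known. By rule, every member is named, and nameable genes are those of the relatives, partners and upstream lists, and the first 6 of the other lists. Figures and tables were made in Python 3.11.15 with matplotlib 3.10.9.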

Additional observations from a re-analysis of the deposited data

How the results depend on the processing

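The count of member genes above the limit was 9 under 9 of 10 alternatives. It was 8 without probe sets of shared sequence, which left no Ier3 set. Of 205 values of single member probe sets under an alternative, 193 kept their direction and their call, 6 lost the call, 4 gained one and 2 changed sign. The 2 were Nr4a2 1450749_a_at, at -0.042 on the log2 scale with the 99th percentile as limit, and Nr4a2 1433422_at, at 0.51 with the array median as limit. With the array median 4 member sets were below the limit in place of 7. Partners and corepressors above the limit numbered 1 with the 99th percentile and 2 with no intensity trend, and 2 to 4 when 1 replicate was left out. All MOE430B sets above the limit numbered 1074 with the 99th percentile, 6289 with the array median and 1243 with no trend, beside 1916. All MOE430A sets above it numbered 4255 without probe sets of shared sequence, beside 7364, with fewer sets tested. Genes that differed between replicates numbered 0 to 5 of all genes over the alternatives, beside 7. No paired analysis was possible because each fit against the limit lies within 1 chip, where a replicate number occurs once, and in the replicate fit that number is the factor tested. The cause of these changes was not tested.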

Other observations

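The promoter letters searched for the members were also counted over all genes. Of 14452 measured genes with a promoter in the table, 34.2% were above the limit. The share was 42.5% of 4336 genes with the letters TGACG, 46.0% of 910 with the Egr site, 31.9% of 229 with a CArG box and 22.6% of 208 with the Nr4a site AAAGGTCA. It was 51.5% of 957 genes with the ETS site CCGGAAGT and 27.6% of 1662 with TATAAA. These are shares without a test, and the base composition of the promoters, which moves with such letters, was not taken into account.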
